A study of Homo sapiens with 8 samples.

Results

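The comparison set the PDE10A knockout clone 5H5 (KO 5H5) against the empty-vector clone 1B9 (EV 1B9) of the established human line SKOV3, derived from ovarian adenocarcinoma. Its members were the 4 libraries whose column names carry these clone names in the raw count table, out of 8 libraries in all. KO 5H5 is labelled as a knockout of PDE10A and EV 1B9 as its empty-vector control, and the other 4 libraries came from parental SKOV3 cells and from a second knockout clone, 2F4 (KO 2F4). All cells were grown in McCoy's medium with fetal bovine serum and were untreated per the labels. Each line had 2 libraries from distinct culture passages, and library 2 of each line carries the suffix UnTx, with its meaning not given in the sources used here. Each of KO 5H5 and EV 1B9 is 1 clone, so the p-values below do not measure the spread between independently made clones. They measure the spread between passages, estimated together from the 8 libraries of all 4 lines and not from KO 5H5 and EV 1B9 alone.

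PDE10A is a phosphodiesterase that degrades the second messengers cAMP and cGMP. Cyclic AMP activates protein kinase A, which phosphorylates the transcription factor CREB, and CREB binds the cAMP response element in promoters. Keratins form the intermediate filaments of epithelial cells, and they pair as a type I with a type II chain: KRT14 with KRT5 in basal layers of stratified epithelia, KRT18 with KRT8 in simple epithelia. Fibronectin, collagens and calponins belong to the matrix and contractile programmes that carcinoma cells use in adhesion and migration.

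Counts assigned to genes summed to 28648044 in EV 1B9 1, 21129548 in EV 1B9 2, 20601319 in KO 5H5 1 and 25525971 in KO 5H5 2. Levels are CPM, counts relative to library size scaled with TMM, which corrects for differences in composition. Mitochondrial genes held 3.10% and 3.20% of gene counts in EV 1B9 and 4.16% and 2.56% in KO 5H5. The rank correlation of level with GC content was 0.142 and 0.123 in EV 1B9 and 0.269 and 0.185 in KO 5H5, so GC content moved with the comparison. Its part in single results was tested only through the GC and length offsets given below. In bulk RNA, fewer cells that express a gene and less RNA per cell cannot be told apart. The genes PRKACA, LRP6, ID3, NDUFS1 and HLA-E, which most cells use, had 0 counts in all 8 libraries, so a 0 in this table does not by itself show that no transcript was made.

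PDE10A (ENSG00000112541.15, chromosome 6, 165327287 to 165988078 on GRCh38), the targeted gene, had 183 and 220 counts in EV 1B9 and 4 and 12 counts in KO 5H5. These were 4.94 and 8.87 CPM against 0.229 and 0.438 CPM, and the groups did not overlap. PDE10A fell by 4.32 in log2 units (SE 1.08, adjusted p 0.0351 from the quasi-likelihood F test of edgeR, adjusted after Benjamini and Hochberg over all genes tested). The call was lost without any 1 of the 4 libraries (adjusted p 0.112 to 0.38), and the fall then ranged from -4.88 to -3.84. The place of the edit was not given in the sources used here, and counts over the whole gene do not show whether the remaining reads come from an edited transcript.

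Of 15551 genes tested, 681 were called at an adjusted p under 0.05 (4.38%), 419 higher in KO 5H5 (2.69%) and 262 lower (1.68%). Protein-coding genes made up 640 of them. The changes were large, with a median absolute log2 fold change of 3.09 among called genes, and 348 of the higher and 230 of the lower genes differed by at least 4-fold. At least 10-fold differences were seen in 181 higher and 127 lower genes. No overlap between the groups was seen for 680 of the 681, beside 54.8% of all genes tested. Single libraries set how many genes passed: with EV 1B9 1 left out 239 passed and with EV 1B9 2 left out 317, and leaving out KO 5H5 1 or KO 5H5 2 gave 251 and 293, although at least 680 of the 681 kept their direction in each of these. With offsets for GC content and gene length 906 genes passed, 487 higher and 419 lower.

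**Figure D1:**
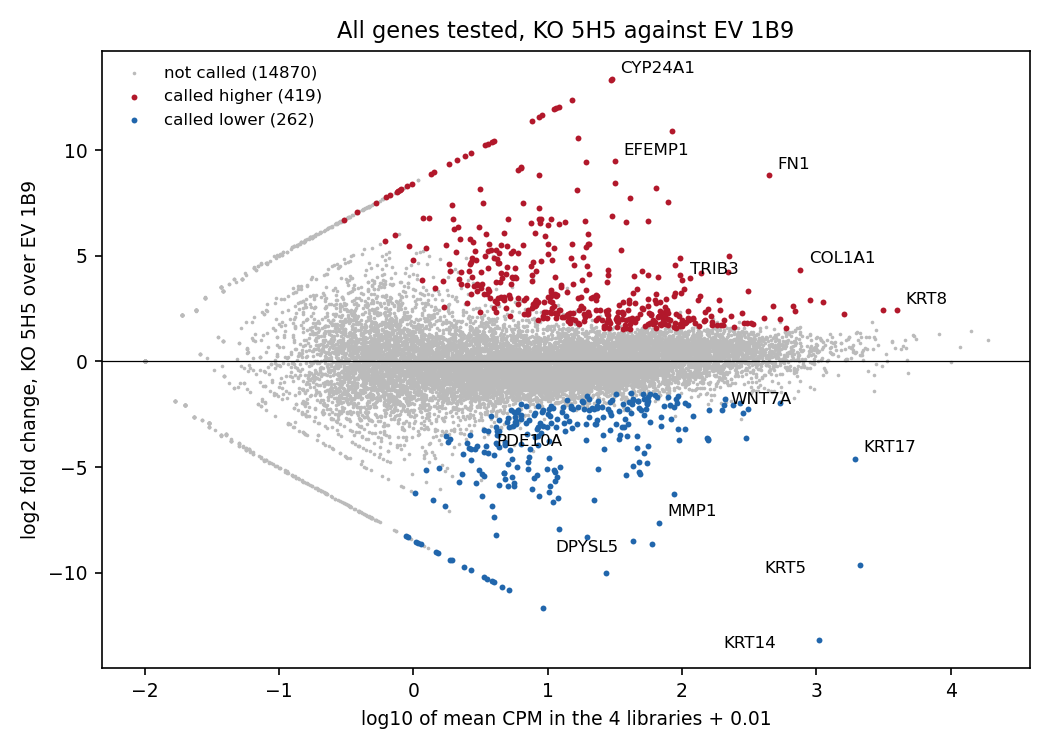
Each point is 1 of the genes tested, with the log10 of the mean CPM of the 4 libraries plus 0.01 on the x axis and the log2 fold change of KO 5H5 over EV 1B9 on the y axis. Red points are the 419 genes called higher, blue points the 262 called lower, and KRT14 and KRT5 lie far below 0 at high mean levels while FN1 lies far above.

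The largest rises were in genes that EV 1B9 barely or never showed. CYP24A1 (ENSG00000019186.10, chromosome 20, 54153449 to 54173973), the hydroxylase that inactivates vitamin D, had 0 counts in both EV 1B9 libraries and 44.8 and 76.2 CPM in KO 5H5. With a floor of 3 counts over the group, it was at least 1320-fold higher (adjusted p 1.44e-05, edgeR). Of the 12 largest rises, 10 had 0 counts in both EV 1B9 libraries. IFT27, an intraflagellar transport GTPase, rose to 29.7 and 16.4 CPM (at least 445-fold), and RAC2, a GTPase known from blood cells, to 19.7 and 16.7 CPM (at least 369-fold). CNN1, the smooth muscle calponin, stood at 8.06 and 40.4 CPM in KO 5H5 (at least 572-fold higher), so its libraries differed more from each other than those of RAC2. RFLNA, a filamin partner, was at least 594-fold higher, SHISA9, a modulator of AMPA receptors, 462-fold, GABRA3, a GABA receptor subunit, 163-fold, and ANKRD1, a YAP target, 152-fold. DAW1 and MARCHF4 were each at least 150-fold higher on the same floor. The call of ANKRD1 was lost without EV 1B9 1 (adjusted p 0.154) or EV 1B9 2 (adjusted p 0.0964).

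DYSF, the membrane repair protein dysferlin, had 0.054 and 0.121 CPM in EV 1B9 and 112 and 225 CPM in KO 5H5, a log2 difference of 10.90 (SE 0.82, adjusted p 1.44e-05, edgeR). PSG1, a pregnancy-specific glycoprotein whose near-identical paralogs make its count uncertain, had 1 count in EV 1B9 and 1673 in KO 5H5, a ratio of 2300 with a 95% counting interval of 413 to 91100. All 12 genes were also above EV 1B9 in both parental libraries, and in 10 of them both parental libraries lay below both KO 5H5 libraries. The 12 were picked for extreme values in these 2 clones, so a parental level between them follows in part from the choice. CYP24A1, for example, had 4.37 and 2.64 CPM in the parental line. IFT27 and RAC2 lie on chromosome 22 with TST, MPST, KCTD17 and C1QTNF6 between them, and those 4 genes gave log2 fold changes from -0.13 to 0.53 (adjusted p 0.62 to 1).

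Among the largest falls the basal keratin KRT14 (ENSG00000186847.6, chromosome 17, 41582279 to 41586921) came first. KRT14 had 1773 and 2406 CPM in EV 1B9, 0.515 CPM in KO 5H5 1 and 0 in KO 5H5 2. It fell by 13.17 in log2 units (SE 1.16, adjusted p 2.19e-05, edgeR), and the groups did not overlap. Of the 12 largest falls, 9 had 0 counts in both KO 5H5 libraries. AMTN, amelotin of tooth enamel and junctional epithelium, was at least 263-fold lower than its 14.4 and 22.2 CPM in EV 1B9. NLGN4X, a synaptic adhesion protein, was at least 124-fold lower, NPNT, the integrin ligand nephronectin, 109-fold, CD200, an immune-inhibitory surface protein, 106-fold, and COBL, an actin nucleator, 103-fold. GALNT17, a mucin-type glycosyltransferase family member, was at least 77.9-fold lower, MPPED2 72.1-fold, PLVAP, a component of endothelial fenestrae, 58.8-fold, and CBFA2T3, a transcriptional corepressor, 53.5-fold. MGAT3, which adds the bisecting N-acetylglucosamine to N-glycans, had 3320 counts in EV 1B9 and 2 in KO 5H5, a ratio of 1210 with a 95% counting interval of 333 to 9960.

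CD200 and MPPED2 lost their calls without any 1 of the 4 libraries, CBFA2T3 without any but EV 1B9 1, and GALNT17 without either KO 5H5 library (adjusted p 0.0638 to 0.153 over all of these). CD200 also missed the threshold with DESeq2 (adjusted p 0.0597). In 9 of the 12 genes both parental libraries lay below both EV 1B9 libraries, and in 11 they lay above both KO 5H5 libraries. As with the rises, the choice of genes with extreme values in these clones favours this order. PLVAP stood at 10.7 and 7.35 CPM in KO 2F4, above its 4.62 and 2.9 CPM in EV 1B9.

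**Figure D2:**
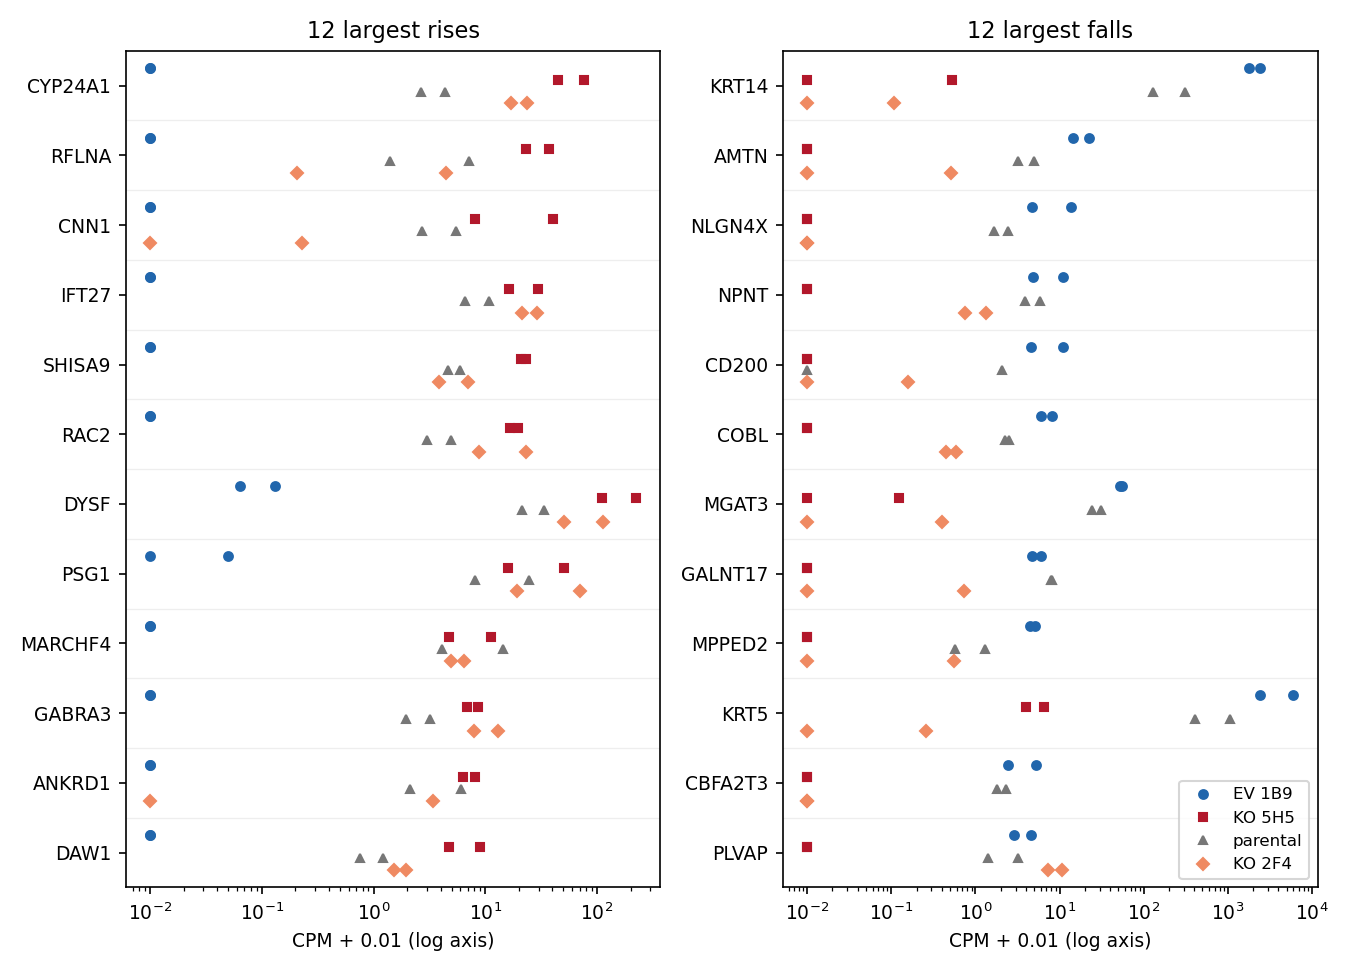
The points give the CPM plus 0.01 of each library on a log axis for the 12 largest rises (left) and the 12 largest falls (right), with EV 1B9 in blue, KO 5H5 in red, parental in grey and KO 2F4 in orange. The EV 1B9 points of the rises lie at the left edge for 10 genes, while the parental points lie to the right of them in all 12.

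Keratins moved in opposite directions by class. Of 8 basal keratins 6 were tested and 4 fell, with none higher. Of 10 keratins of the simple epithelial and hair list 8 were tested and 4 rose, with none lower. These calls were 66.7% and 50% of the tested members, beside 4.38% of all genes. The median log2 fold change was -5.62 in the first list and 2.15 in the second, beside -0.10 for all genes tested. KRT5 (ENSG00000186081.12, chromosome 12, 52514575 to 52520687), the partner of KRT14, went from 2444 and 6009 CPM in EV 1B9 to 4 and 6.57 CPM in KO 5H5, a log2 difference of -9.64 (SE 0.89, adjusted p 3.22e-05, edgeR). KRT17 went from 2039 and 5431 CPM to 112 and 196 CPM and fell by 4.60 (SE 0.76, adjusted p 0.00257). KRT6A, induced in wounded epithelium, fell by 6.64 (SE 0.90, adjusted p 0.000573). KRT15, outside the rule for named genes, had 3.57 and 3.47 CPM in EV 1B9 and 2.52 and 1.21 CPM in KO 5H5 and did not pass (adjusted p 0.673).

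KRT8 rose from 1026 and 1444 CPM to 7261 and 6152 CPM (log2 fold change 2.44, SE 0.48, adjusted p 0.00864, edgeR). Its partner KRT18 rose from 180 and 201 CPM to 1635 and 687 CPM (2.61, SE 0.57, adjusted p 0.0176), and KRT7 from 498 and 1424 CPM to 5522 and 5027 CPM (2.46, SE 0.60, adjusted p 0.0319). In all 3 genes the groups did not overlap, but without EV 1B9 1 none of the 3 passed (adjusted p 0.145 to 0.303) and only KRT81 of this list remained called. KRT8 was also lost without EV 1B9 2 (adjusted p 0.0548), KRT18 without EV 1B9 2 or KO 5H5 1 (adjusted p 0.13 and 0.209), and KRT7 without either KO 5H5 library (adjusted p 0.136 and 0.0855) and with RLE size factors (adjusted p 0.0556). KRT81, a hair keratin, had 1 count in EV 1B9 and 280 in KO 5H5, a ratio of 386 with a 95% counting interval of 68.6 to 15300. The parental line held 311 and 119 CPM of KRT81, far above both clones. KRT19 had 918 and 1311 CPM in EV 1B9 against 4224 and 3900 CPM in KO 5H5 and missed the threshold (adjusted p 0.07). The call of KRT17 was lost without KO 5H5 1 (adjusted p 0.055). Keratin genes have close paralogs, and reads that fit several of them make their counts uncertain.

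**Figure D3:**
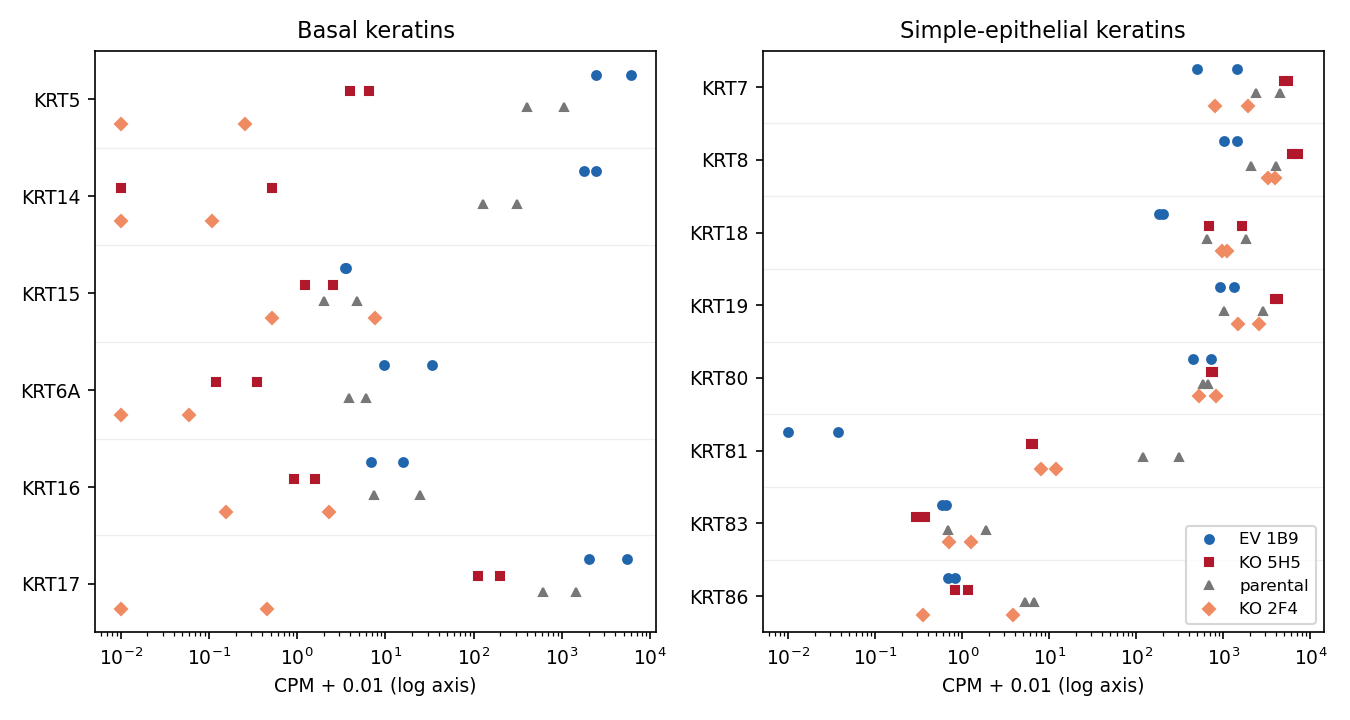
Each point is the CPM plus 0.01 of 1 library on a log axis for the tested basal keratins (left) and simple-epithelial and hair keratins (right). In KO 5H5 (red) KRT5, KRT14, KRT6A and KRT17 lie to the left of EV 1B9 (blue), while KRT7, KRT8, KRT18 and KRT81 lie to the right.

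Junction and epithelial genes did not move as a block. Of 22 tight junction genes 16 were tested and 2 passed (12.5%, beside 4.38% of all genes), both claudins. CLDN4 rose from 0.918 and 2.62 CPM to 73.2 and 64.3 CPM (log2 fold change 5.30, SE 0.57, adjusted p 9.03e-05, edgeR). CLDN3 rose from 0.27 and 0.0807 CPM to 8.29 and 6.35 CPM (5.26, SE 0.70, adjusted p 0.000515). Of 20 tested genes of epithelial identity 2 rose and 2 fell (20% called, beside 4.38% of all genes). AP1M2, an adaptor subunit of polarised sorting, rose by 4.58 (SE 0.53) and ESRP2, an epithelial splicing regulator, by 4.09 (SE 0.55, adjusted p 0.000158 and 0.000566, edgeR). MAL2, a transcytosis protein, fell by 2.34 (SE 0.45, adjusted p 0.00762), and the transcription factor KLF5 fell by 1.84 (SE 0.43, adjusted p 0.0245). KLF5 lost its call without any 1 of the 4 libraries (adjusted p 0.0822 to 0.26), and MAL2 without any but EV 1B9 1. By edgeR 0 of 8 tested desmosome genes, 11 laminins and 12 mesenchymal regulators were called, with 2, 1 and 4 at an unadjusted p under 0.05 (DESeq2 called 2, 0 and 1). Vimentin had 2205 and 1200 CPM in EV 1B9 and 2064 and 1778 CPM in KO 5H5. CDH1, which encodes E-cadherin, had 0.513 and 0.121 CPM in EV 1B9 and 4.06 and 5.4 CPM in KO 5H5, a log2 fold change of 3.84 (SE 1.21) that did not pass (adjusted p 0.0993).

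Genes of the extracellular matrix changed in both directions. Of 29 tested matrix glycoproteins and proteoglycans 7 rose and 4 fell (37.9% called, beside 4.38% of all genes). FN1, fibronectin (ENSG00000115414.19, chromosome 2, 215360440 to 215436172), had 1.11 and 2.86 CPM in EV 1B9 and 615 and 1171 CPM in KO 5H5. It rose by 8.83 in log2 units (SE 0.86, adjusted p 5.21e-05, edgeR), while the parental line held 190 and 769 CPM and KO 2F4 771 and 810 CPM. EFEMP1 and FBLN2, which encode fibulins, rose by 9.50 (SE 0.79) and 8.21 (SE 0.68, adjusted p 1.44e-05 for each). SPARC, a collagen-binding glycoprotein, rose from 3.46 and 2.74 CPM to 62 and 45.2 CPM. TNC, MFAP2 and FBLN1, outside the rule for named genes, rose too. The 4 that fell, all outside that rule, were the fibrillin FBN2 (-7.92), the basement membrane nidogens NID1 (-2.42) and NID2 (-3.73), and MFAP5 (-2.06). Without EV 1B9 2, KO 5H5 1 or KO 5H5 2, 1 member instead of 4 was called lower.

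Type I collagen is built from COL1A1 and COL1A2 chains, and the genes for them moved apart. COL1A1 had 22.8 and 120 CPM in EV 1B9 and 914 and 1987 CPM in KO 5H5 (log2 fold change 4.34, SE 1.00, adjusted p 0.0243, edgeR). COL1A2 had 10.8 and 26.7 CPM in EV 1B9 and 1.49 and 3.36 CPM in KO 5H5 (-2.94, SE 0.64, adjusted p 0.0171). Neither pair of groups overlapped, and in both genes library 2 was the higher of each clone. COL8A1 and COL16A1 rose by 3.08 (SE 0.54) and 4.82 (SE 1.02), and COL4A4 and COL6A1, outside the rule for named genes, rose too. Thus 5 of 24 tested collagens rose and 1 fell (25% called, beside 4.38% of all genes). This count rests on single libraries, since no collagen was called higher without EV 1B9 1 or without KO 5H5 2. COL1A1 then had adjusted p of 0.251 and 0.107, COL8A1 0.0785 and 0.0742 and COL16A1 0.132 and 0.0861, and COL1A2 lost its call without EV 1B9 2 (adjusted p 0.195) or either KO 5H5 library.

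Of 14 tested matrix metalloproteases and inhibitors 1 rose and 3 fell (28.6% called, beside 4.38% of all genes). MMP1, an interstitial collagenase, had 209 and 60.3 CPM in EV 1B9 and 0.572 and 0.767 CPM in KO 5H5. It fell by 7.62 (SE 0.73, adjusted p 4.06e-05, edgeR), with 2.94 and 2.36 CPM in the parental line. The stromelysin MMP10 fell by 6.06 (SE 1.49, adjusted p 0.0328) and the membrane-anchored MMP17 by 3.83 (SE 0.83, adjusted p 0.0174). MMP2, a gelatinase, rose from 46.4 and 48.1 CPM to 166 and 142 CPM (1.70, SE 0.39, adjusted p 0.024). The calls of MMP2, MMP10 and MMP17 were each lost without any 1 of the 4 libraries (adjusted p 0.0529 to 0.313), and MMP10 also missed the threshold with DESeq2 (adjusted p 0.208). The serpins SERPINB5 and SERPINE2 fell by 5.32 (SE 0.96) and 2.28 (SE 0.54), calls that were lost without EV 1B9 2 or either KO 5H5 library and, for SERPINE2, also without EV 1B9 1 (adjusted p 0.0595 to 0.192).

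Genes of the contractile apparatus and targets of the SRF and YAP regulators were higher or did not pass. Of 19 tested, 7 rose and none fell (36.8% called, beside 4.38% of all genes), with a median log2 fold change of 0.99. MYL9, a myosin light chain, had 0.891 and 0.766 CPM in EV 1B9 and 133 and 178 CPM in KO 5H5, a log2 difference of 7.54 (SE 0.61, adjusted p 1.44e-05, edgeR). The tropomyosins TPM2 and TPM1 rose by 2.82 (SE 0.43, adjusted p 0.00128) and 2.89 (SE 0.50, adjusted p 0.00401), TPM1 losing its call without EV 1B9 1 or EV 1B9 2 (adjusted p 0.0686 and 0.0654). TAGLN, which encodes the actin-binding transgelin, and the calponin CNN2, outside the rule for named genes, rose by 2.90 (SE 0.52) and 2.60 (SE 0.54). CNN1 and ANKRD1 completed the 7. The YAP targets CCN1 and CCN2 had log2 fold changes of 1.61 (SE 0.49) and 1.86 (SE 0.56) and did not pass (adjusted p 0.0857 and 0.0829). Without EV 1B9 1, 3 members were called, and without EV 1B9 2, 4. TGFB2 and INHBA, which encode a TGF-beta and an activin subunit, rose by 6.74 (SE 0.78) and 4.77 (SE 0.65, adjusted p 0.000159 and 0.000604, edgeR). No other of 23 tested TGF-beta and BMP genes passed (8.7% called, beside 4.38% of all genes).

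**Figure D4:**
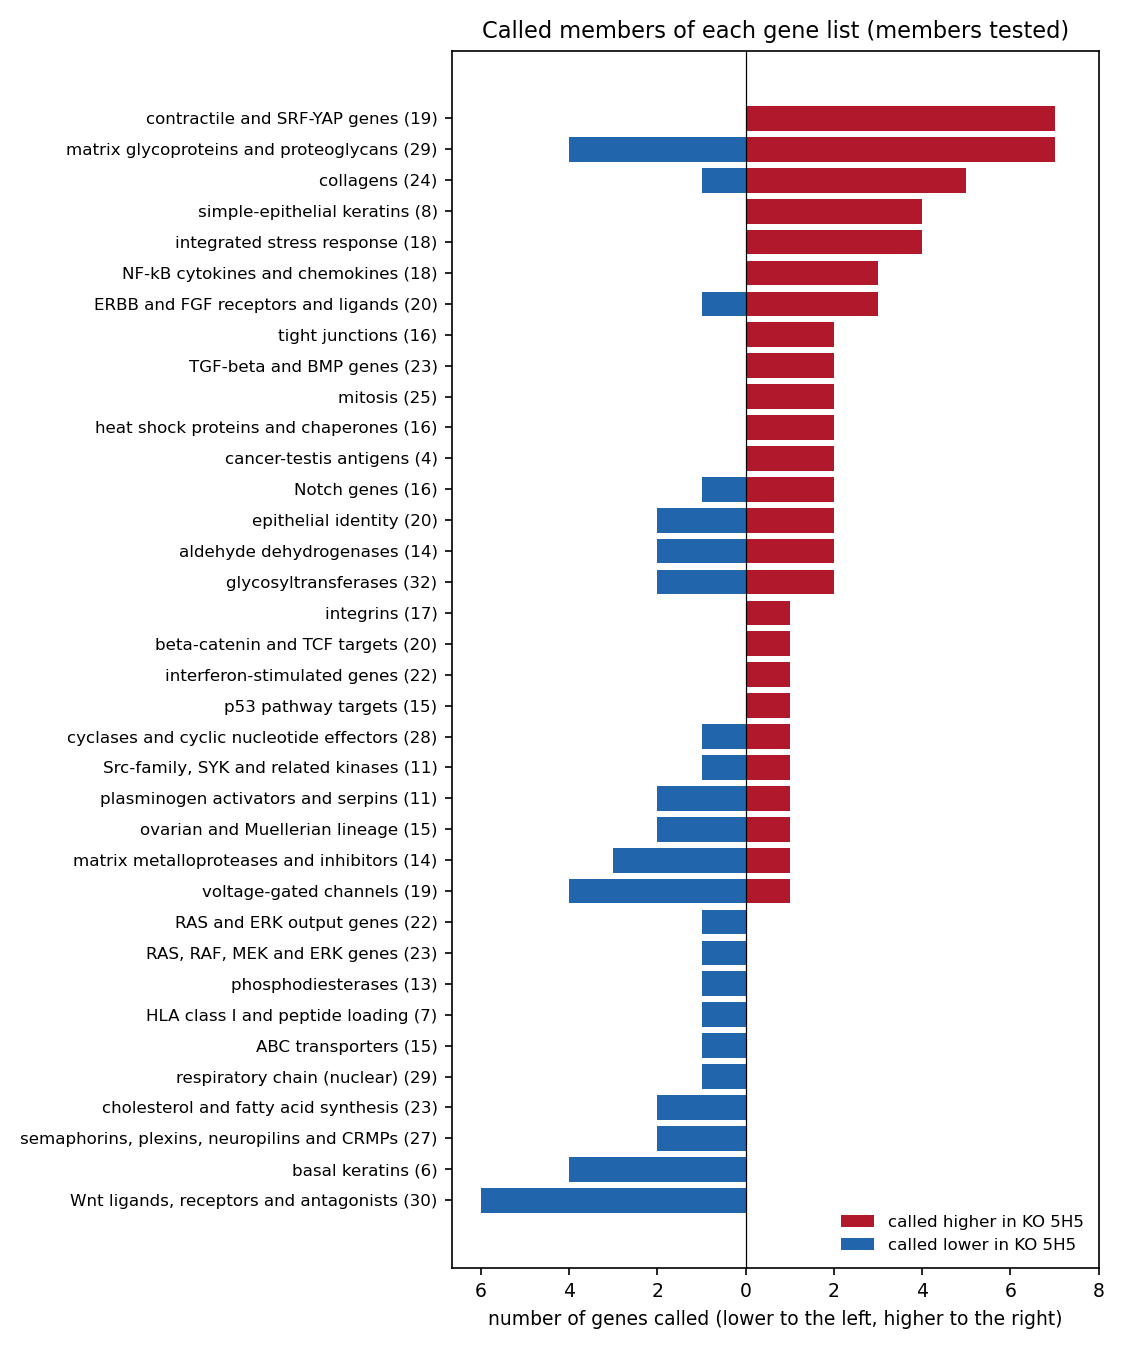
Bars give the number of members of each gene list called higher (red, to the right) or lower (blue, to the left) in KO 5H5 against EV 1B9, with the number of members tested in brackets. Lists with 0 called members and cell type marker lists are not drawn, and the contractile and matrix lists hold the most rises and the Wnt list the most falls.

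In the Wnt pathway, ligands, receptors and secretion factors were lower or did not pass. Porcupine (PORCN) acylates Wnt ligands and WLS carries them to the cell surface, frizzleds are their receptors, and SFRP1 is a secreted antagonist. Of 30 tested, 6 fell and none rose (20% called, beside 4.38% of all genes), with a median log2 fold change of -0.99. SFRP1 had 27.3 and 20.3 CPM in EV 1B9 and 0.915 and 0.584 CPM in KO 5H5 and fell by 5.00 (SE 0.59, adjusted p 0.000195, edgeR). The ligand WNT7A went from 348 and 314 CPM to 70.3 and 62.9 CPM (-2.31, SE 0.43, adjusted p 0.00671). WNT9A fell by 2.94 (SE 0.50, adjusted p 0.00306) and WLS by 3.18 (SE 0.54, adjusted p 0.00322). PORCN and the receptor FZD1, outside the rule for named genes, fell by 1.77 (SE 0.44) and 2.10 (SE 0.54, adjusted p 0.0349 and 0.0415). The ligand WNT5A, also outside it, had 0 and 0.484 CPM in EV 1B9 and 5.15 and 9.89 CPM in KO 5H5 but did not pass (adjusted p 0.0601). The number of Wnt genes called lower depended on the library left out. It was 1 without KO 5H5 1, 2 without KO 5H5 2, 3 without EV 1B9 1 and 4 without EV 1B9 2, but 10 without either KO 2F4 library. In addition 1 was called higher without EV 1B9 2 and without either parental or KO 2F4 library. WNT7A missed the threshold without EV 1B9 1 (adjusted p 0.0502) or either KO 5H5 library, WNT9A without either KO 5H5 library and WLS without KO 5H5 1 (adjusted p 0.0544 to 0.0939).

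CTNNB1, which encodes beta-catenin, did not pass. It had 76.2 and 73.2 CPM in EV 1B9 and 57.6 and 83.9 CPM in KO 5H5 (log2 fold change -0.08, SE 0.44, adjusted p 0.96, edgeR), and its sign turned with GC and length offsets (0.24) and without KO 5H5 1 (0.17). Of 20 tested targets of beta-catenin and TCF, 1 was called (5.0%, near the 4.38% of all genes), with a median log2 fold change of -0.89. SP5, that target, rose by 5.12 (SE 0.90, adjusted p 0.0041), a call lost without EV 1B9 1 (adjusted p 0.0955) or KO 5H5 1 (adjusted p 0.0504). Its levels were 0.189 and 0.484 CPM in EV 1B9 and 14.5 and 8.76 CPM in KO 5H5. MYC had 25.9 and 21.9 CPM in EV 1B9 and 36.2 and 32.1 CPM in KO 5H5, and the difference did not pass (0.52, SE 0.39, adjusted p 0.537). Nor did CCND1 (-0.20, SE 0.46, adjusted p 0.875), whose sign turned without KO 5H5 2 (0.17), or BIRC5 (0.66, SE 0.47, adjusted p 0.498).

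In cyclic nucleotide signalling, PDE9A, GUCY1B1 and CREB3L1 were called besides PDE10A. Of 13 tested phosphodiesterases apart from it, 1 was called (7.69%, beside 4.38% of all genes), the cGMP-specific PDE9A. PDE9A went from 14 and 6.57 CPM to 1.49 and 1.13 CPM and fell by 2.98 (SE 0.59, adjusted p 0.0101, edgeR). Of 28 tested cyclases and effectors 2 were called (7.14%). CREB3L1, a membrane-bound transcription factor of the CREB family, rose from 0.459 and 1.13 CPM to 76.3 and 75.3 CPM (6.60, SE 0.91, adjusted p 0.000646). GUCY1B1, the beta subunit of soluble guanylate cyclase, fell by 3.04 (SE 0.74, adjusted p 0.0318). PDE9A lost its call without any 1 of the 4 libraries but EV 1B9 2, and GUCY1B1 without any of them (adjusted p 0.0921 to 0.388). Of 15 tested cAMP-responsive genes edgeR called 0, with 4 at an unadjusted p under 0.05, and DESeq2 called 1 higher and 1 lower. Their median log2 fold change was 0.25, and JUNB, with 162 and 130 CPM in EV 1B9 and 47.7 and 54.4 CPM in KO 5H5, came close (-1.52, SE 0.41, adjusted p 0.0529).

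Because PDE10A degrades cAMP, the promoters of called genes were searched for the full cAMP response element, TGACGTCA, which reads the same on both strands. RefSeq promoter windows of GRCh38.p14, the 250 bases before each gene's start, were found for 77 of the 120 named genes and 11116 of the genes tested. In 4 of the 77, FN1, IFT27, IL32 and PPP1R15A, the window held the element, and all 4 were called higher in KO 5H5. Of the 120 named genes 116 were called, nearly all of them chosen for it, so the calls follow largely from the choice. The direction shared by the 4 genes was not tested. Their sequences are shown 5′ to 3′ because they are the genes among the 77 with this element. Bases inside the GENCODE 29 gene were left off at the 3′ end, and capitals mark the element.
FN1, chr2:215436173-215436318, strand minus: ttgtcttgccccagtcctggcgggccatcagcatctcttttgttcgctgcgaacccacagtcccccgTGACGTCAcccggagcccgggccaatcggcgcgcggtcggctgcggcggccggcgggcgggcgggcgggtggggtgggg
IFT27, chr22:36776257-36776369, strand minus: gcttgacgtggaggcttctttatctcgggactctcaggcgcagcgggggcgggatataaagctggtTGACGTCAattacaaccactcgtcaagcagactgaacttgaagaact
IL32, chr16:3065153-3065296, strand plus: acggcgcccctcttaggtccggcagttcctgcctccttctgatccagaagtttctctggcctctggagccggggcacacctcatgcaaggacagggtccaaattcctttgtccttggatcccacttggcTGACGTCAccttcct
PPP1R15A, chr19:48872171-48872391, strand plus: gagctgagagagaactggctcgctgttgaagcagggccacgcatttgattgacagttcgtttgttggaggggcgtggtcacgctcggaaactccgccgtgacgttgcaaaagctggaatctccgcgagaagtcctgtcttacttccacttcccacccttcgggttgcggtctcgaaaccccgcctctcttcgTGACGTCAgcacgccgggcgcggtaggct
The element starts 183 bases before the RefSeq start in FN1, 184 in IFT27, 121 in IL32 and 58 in PPP1R15A. Across all called genes, without a test, 1.95% of 307 windows of genes called higher and 1.65% of 182 of genes called lower held it, beside 2.82% of tested genes and 1.77% of all 27305 windows in the table. The half-site TGACG, which the full element contains, was in 18.6% and 19.8% of windows of genes called higher and lower, beside 28.9% of tested genes. The AP-1 letters TGANTCA were in 7.49% and 6.04%, beside 4.07%, and the AP-2 letters GCCNNNGGC were in 30.0% and 34.6%, beside 28.1%. The TATA box letters TATAAA were in 7.82% and 6.04%, beside 5.29%, and the E-box CACGTG in 7.17% and 7.14%, beside 8.64%. Both strands were read for each motif. A match describes letters in a window and is not a bound site.

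IL32, a pro-inflammatory cytokine, had 0.567 and 4.15 CPM in EV 1B9 and 51.9 and 15.9 CPM in KO 5H5 (log2 fold change 3.86, SE 0.86, adjusted p 0.019, edgeR). C3, the central complement component, rose by 5.23 (SE 0.72, adjusted p 0.00063), and IL6 had 1 count in EV 1B9 and 49 in KO 5H5, a ratio of 67.5 with a 95% counting interval of 11.6 to 2720. These were the 3 called genes of 18 tested NF-kB cytokines and chemokines (16.7%, beside 4.38% of all genes). C3 alone held without each of the 4 libraries, while IL32 was lost without EV 1B9 1 or KO 5H5 1 and IL6 without any of them (adjusted p 0.0536 to 0.26). ISG15, a ubiquitin-like protein induced by interferon, rose by 2.26 (SE 0.55). It was the 1 called of 22 tested interferon-stimulated genes (4.55%, near the 4.38% of all genes). B2M, the light chain of HLA class I, had 81.5 and 45.1 CPM in EV 1B9 and 12.2 and 21.3 CPM in KO 5H5 and fell by 1.91 (SE 0.51, adjusted p 0.0469). The ISG15 and B2M calls were lost without any 1 of the 4 libraries (adjusted p 0.0647 to 0.522), and that of B2M also with GC and length offsets (adjusted p 0.054).

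Genes of the integrated stress response, which the factor ATF4 drives when translation is restrained, were higher or did not pass, with 4 of 18 tested called higher (22.2%, beside 2.69% of all genes) and a median log2 fold change of 0.76. TRIB3, a pseudokinase induced by ATF4, rose from 11.8 and 14 CPM to 246 and 126 CPM (3.85, SE 0.49, adjusted p 0.000363, edgeR). PHGDH, which commits glycolytic carbon to serine synthesis, rose from 16.4 and 8.79 CPM to 159 and 71.9 CPM (3.19, SE 0.50, adjusted p 0.00178). PPP1R15A, which returns eIF2 to its unphosphorylated form, rose by 2.51 (SE 0.45, adjusted p 0.00519), and the transcription factor ATF5 rose by 1.90 (SE 0.46, adjusted p 0.0293). ATF4 itself had 126 and 86.4 CPM in EV 1B9 and 208 in each KO 5H5 library and did not pass (0.97, SE 0.46, adjusted p 0.289). PSAT1, the next enzyme of serine synthesis after PHGDH, had 134 and 105 CPM in EV 1B9 and 36.6 and 33.9 CPM in KO 5H5 and missed the threshold (-1.76, SE 0.49, adjusted p 0.0631). PPP1R15A and ATF5 lost their calls without EV 1B9 1, EV 1B9 2 or KO 5H5 1, so 2 members were called in each of those. The small heat shock proteins HSPB8 and CRYAB rose by 5.93 (SE 0.72, adjusted p 0.00024) and 2.90 (SE 0.54, adjusted p 0.00662), the latter call lost without EV 1B9 1 (adjusted p 0.107) or KO 5H5 2 (adjusted p 0.052).

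Growth factor genes split by member. FGF1 rose from 0.729 and 0.444 CPM to 8.52 and 7.96 CPM (3.78, SE 0.61, adjusted p 0.00199, edgeR), and the receptor gene FGFR2 rose by 3.80 (SE 0.72, adjusted p 0.00727). FGFR2 lost its call without either EV 1B9 library or KO 5H5 2 (adjusted p 0.0856 to 0.116). FGFBP1, which releases FGFs from the matrix, fell from 387 and 186 CPM to 19.3 and 26.4 CPM (-3.65, SE 0.49, adjusted p 0.000491). HBEGF, a ligand of EGFR, rose by 2.80 (SE 0.69, adjusted p 0.0336) and lost its call without any 1 of the 4 libraries. Of 23 tested genes of the RAS to ERK cascade 1 was called (4.35%) and of 22 tested ERK output genes 1 (4.55%), both near the 4.38% of all genes. RRAS2, an R-Ras GTPase, fell by 2.01 (SE 0.43), and SPRY1, a Sprouty inhibitor, had 0 counts in KO 5H5 and was at least 33.9-fold lower. RRAS2 lost its call without EV 1B9 1 or either KO 5H5 library and SPRY1 without any of the 4 (adjusted p 0.0785 to 0.242). ERBB2, amplified in SKOV3, had 2542 and 5333 CPM in EV 1B9 and 1571 and 1393 CPM in KO 5H5 and did not pass (-1.41, SE 0.46, adjusted p 0.112). The Notch modifier LFNG rose by 4.53 (SE 0.56), the Notch effector HEYL by 5.21 (SE 1.06), and the ligand JAG2 fell by 1.99 (SE 0.40, adjusted p 0.011). HEYL lost its call without EV 1B9 1 or KO 5H5 1 and JAG2 without EV 1B9 2 or either KO 5H5 library (adjusted p 0.0645 to 0.134).

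Several single genes with restricted expression changed by large factors. DPYSL5, a collapsin response mediator of growth cones, had 96.7 and 140 CPM in EV 1B9 and 0.572 and 0.073 CPM in KO 5H5, a fall by 8.65 (SE 0.78, adjusted p 4.06e-05, edgeR), and the semaphorin SEMA6A fell by 5.73 (SE 0.83). Of 19 tested voltage-gated channel genes 1 rose and 4 fell (26.3% called, beside 4.38% of all genes). CACNA1H, a T-type calcium channel, fell by 6.48 (SE 0.94), and the BK channel KCNMA1 rose by 4.27 (SE 0.62, adjusted p 0.000925 and 0.00093, edgeR). GALNT14 rose by 5.57 (SE 0.60) and GALNT16 fell by 6.39 (SE 0.80), both mucin-type glycosyltransferase genes. SYK, a tyrosine kinase, had 0 counts in EV 1B9 and 5.83 and 4.93 CPM in KO 5H5 (at least 109-fold higher), while MATK, a kinase that restrains Src, fell by 4.93 (SE 0.81, adjusted p 0.00246). MLLT11, known from leukaemic fusions with the MLL gene, rose from 3.3 and 2.14 CPM to 46.4 and 61.6 CPM (4.31, SE 0.51, adjusted p 0.000195). SPANXB1 and SPANXD, cancer-testis genes with near-identical copies, rose by 5.55 (SE 0.61) and at least 17.4-fold, and the copies make both counts uncertain. SPANXD lost its call without any 1 of the 4 libraries (adjusted p 0.055 to 0.232).

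In metabolism, ALDH3A1, an aldehyde dehydrogenase of epithelia, went from 71.7 and 78.4 CPM to 1.94 and 1.68 CPM and fell by 5.37 (SE 0.61, adjusted p 0.000132, edgeR). ALDH4A1, of proline breakdown, rose by 3.23 (SE 0.58, adjusted p 0.00503), a call lost without EV 1B9 1 (adjusted p 0.0897). The lipid transporter ABCA3 fell by 5.09 (SE 0.58, adjusted p 0.000133), and COX7A1, a cytochrome oxidase subunit of muscle, by 5.90 (SE 0.93, adjusted p 0.00169). The fatty acid desaturase gene SCD fell by 1.68 (SE 0.41), a call that was lost without any 1 of the 4 libraries (adjusted p 0.108 to 0.417). All 13 mitochondrially encoded genes lay above 0, with a median log2 fold change of 0.55. Their summed level was 18550 and 21640 CPM in EV 1B9 and 42330 and 19340 CPM in KO 5H5, so the groups overlapped. Neither edgeR nor DESeq2 called any of these genes, while 1 had an unadjusted p below 0.05 (edgeR). The mitotic genes AURKB and UBE2C rose by 2.42 (SE 0.44, adjusted p 0.00519, edgeR) and 1.72 (SE 0.43, adjusted p 0.0341). They were the 2 called of 25 tested (8%, beside 4.38% of all genes), in a list with a median log2 fold change of -0.004. Of 31 DNA replication genes edgeR called 0, while 4 had an unadjusted p below 0.05 and DESeq2 called 1 lower. The call of AURKB was lost without either EV 1B9 library or KO 5H5 1 (adjusted p 0.0558 to 0.0905), and that of UBE2C without any 1 of the 4 libraries (adjusted p 0.0667 to 0.343).

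Markers were read against the labels. The ovarian transcription factor PAX8 had 226 and 291 CPM in EV 1B9 and 255 and 256 CPM in KO 5H5. Of the 10 markers of ovarian carcinoma epithelium 4 rose in KO 5H5 (40%, beside 2.69% of all genes), KRT7, KRT8, KRT18 and MUC16, the CA125 antigen. In this list 0 were called lower, but 4 of the 10 had a log2 fold change below 0, among them ERBB2, described above. MUC16 was low, with 0.297 and 0.807 CPM in EV 1B9 and 7.09 and 10 CPM in KO 5H5 (adjusted p 0.0455, edgeR), and its call was lost without any 1 of the 4 libraries (adjusted p 0.144 to 0.353). Without EV 1B9 1, 0 markers of this list were called, without EV 1B9 2 or KO 5H5 1 1, and without KO 5H5 2 2. Of 15 tested genes of the ovarian and Muellerian lineage, a list that also holds MUC16, 3 were called (20%, beside 4.38% of all genes). The 2 that fell were the transcription factor genes MEIS1 (-3.49, SE 0.81, adjusted p 0.0244, edgeR) and MECOM (-1.99, SE 0.52, adjusted p 0.0444). MEIS1 had 8.05 and 7.26 CPM in EV 1B9 and 0.458 and 0.876 CPM in KO 5H5, and both calls were lost without any 1 of the 4 libraries (adjusted p 0.0534 to 0.525). The summed level of the 10 fibroblast markers was 36.1 and 151 CPM in EV 1B9 and 926 and 2011 CPM in KO 5H5. COL1A1 held 22.8 and 120 CPM of it in EV 1B9 and 914 and 1987 CPM in KO 5H5, while COL3A1 and FAP had 0 counts and PDGFRA, DCN and POSTN were under 0.2 CPM in all 4 libraries. PDGFRB, the platelet-derived growth factor receptor beta, rose from 0.027 and 0.121 CPM to 8.46 and 17.7 CPM (7.48, SE 0.92, adjusted p 0.000264, edgeR). COL1A2 of the same marker list fell by 2.94, so that 2 of 6 tested members rose and 1 fell (50% called, beside 4.38% of all genes). Summed markers of endothelial cells were 1.13 and 1.77 CPM in EV 1B9 and 2.92 and 2.59 CPM in KO 5H5, and those of blood cells 0.594 and 0.484 CPM against 2.46 and 2.52 CPM. In both lists the KO 5H5 libraries lay above the EV 1B9 libraries. The sums overlapped for neuronal markers (7.55 to 14.1 CPM) and for mesothelial markers (60.2 to 112 CPM). LRRN4 of the mesothelial list rose from 3.38 and 6.37 CPM to 47.4 and 35.5 CPM (3.09, SE 0.57, adjusted p 0.00592), a call lost without EV 1B9 1 (adjusted p 0.116) or KO 5H5 1 (adjusted p 0.0582). The part of other cells in these results was not tested.

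Whether the change against EV 1B9 differed between the knockout clones was tested by KO 5H5 against KO 2F4, in which EV 1B9 drops out. That test called 61 genes (0.392%), 36 higher in KO 5H5 (0.231%) and 25 lower (0.161%). Of the 419 genes higher than in EV 1B9, 12 were also higher than in KO 2F4 and 3 were lower, and of the 262 lower genes 15 were also lower and 7 were higher. KRT17 was among the last, at 112 and 196 CPM in KO 5H5 and 0.441 and 0 CPM in KO 2F4. Both tests use the same KO 5H5 libraries, so in these counts a same sign is favoured by the choice of genes. A p that misses the threshold does not show that the clones act alike. The comparison of KO 2F4 with the parental line shares no library with that of KO 5H5 with EV 1B9, and it called 208 genes (1.34%), 47 higher (0.302%) and 161 lower (1.04%). The lists shared 113 genes, 105 in the same direction, which are 15.4% of the 681 and 50.5% of the 208. Of the 105, 76 were lower and 29 higher. For KO 2F4 over parental KRT14 gave -11.76 and MLLT11 4.30 in log2 units, and FN1 0.72. The shared count was 50 to 64 without any 1 of the 4 libraries of KO 5H5 and EV 1B9, and 184 without KO 2F4 1.

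EV 1B9 stood apart from the parental line, by number of calls about as much as KO 2F4 did (208, given above). EV 1B9 against parental called 209 genes (1.34%), 25 higher (0.161%) and 184 lower (1.18%), and KO 5H5 against parental 115 (0.74%), 18 higher (0.116%) and 97 lower (0.624%). KO 2F4 against EV 1B9 called 2019 (13%), 1069 higher (6.87%) and 950 lower (6.11%). These comparisons share libraries with the main one, so only values are set side by side. FN1 was -7.93 for EV 1B9 over parental, CYP24A1 -9.26, KRT81 -13.27, CLDN3 -6.93 and MYL9 -5.84 in log2 units, and KRT5 and KRT14 gave 2.53 and 3.25.

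The differences were uneven across chromosomes. Among genes averaging 5 CPM or more, the median log2 fold change of KO 5H5 over EV 1B9 was -1.18 on chromosome 13 (114 genes, 93.0% below 0), -0.83 on chromosome 4 and -0.74 on chromosome 18, beside 0.02 over all chromosomes. Of 264 tested genes on chromosome 13, 15 were called lower (5.68%) and 1 higher (0.379%). Chromosome 4 held 28 called lower (4.9%) and 1 higher (0.175%) of 572 tested. Over all genes tested, 1.68% were called lower and 2.69% higher. Single pairs of 1 KO 5H5 and 1 EV 1B9 library gave -1.35 to -0.74 for chromosome 13. EV 1B9 over parental gave 1.11 there and KO 5H5 over parental -0.04. GC content moved with these values, with a median of 43.4% on chromosome 13 and 60.0% on chromosome 19, whose median was 0.43. With GC and length offsets chromosome 13 gave -0.85, chromosome 4 -0.60, chromosome 18 -0.38 and chromosome 19 0.13. The number of chromosome copies was not measured.

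**Figure D5:**
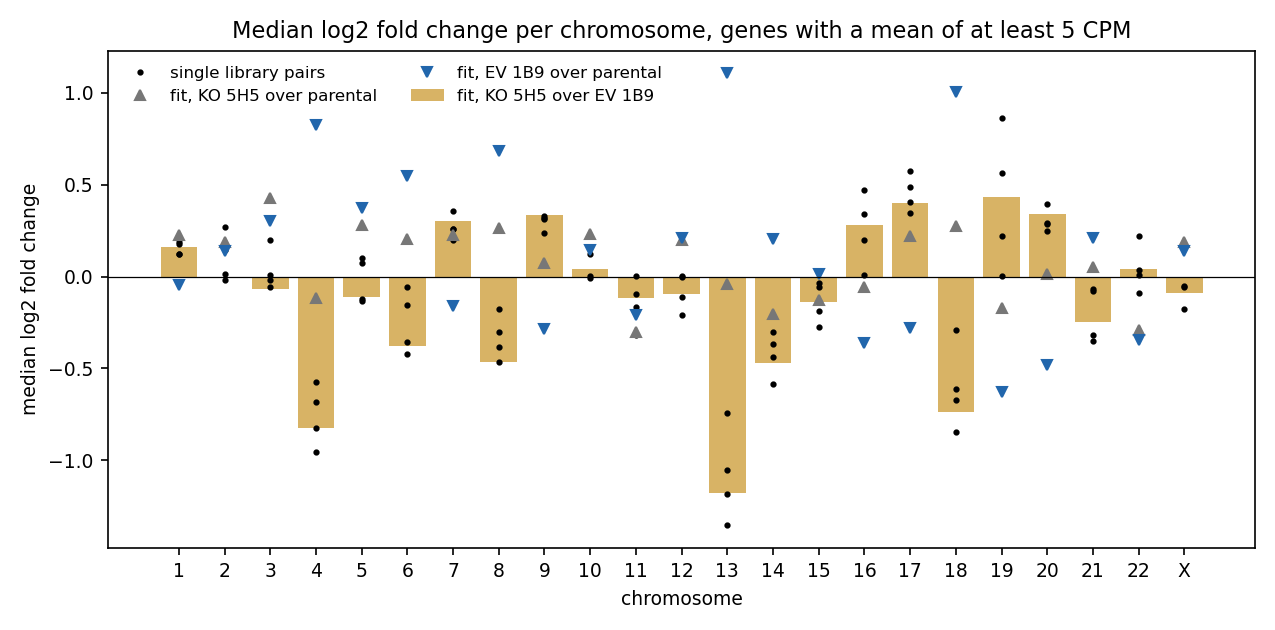
Bars give the median log2 fold change of KO 5H5 over EV 1B9 per chromosome for genes averaging 5 CPM or more, black points the same median for each pair of single libraries, and triangles KO 5H5 (grey) and EV 1B9 (blue) over parental. Chromosome 13 has the lowest bar, and there EV 1B9 lies 1.11 above the parental line while KO 5H5 lies near 0.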

How the data were processed

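RNA was extracted with TRIzol and sequenced after a directional library preparation, per the labels' protocols. The authors deposited raw counts per gene for 8 libraries, and the table's name gives HTSeq-count as their source. Per the submitters' processing notes, which state no roles, the tools were HTSeq 0.11.3, STAR 2.7.3a, DESeq2 1.26.0 and bcl2fastq 2.18.0.12, with build GRCh38. The annotation release and strand setting of the counting were not given in the sources used here, so counts of overlapping and antisense genes are uncertain. Of 67008 genes, those without enough counts were removed with filterByExpr (minimum count 10, minimum total 15), and 5 summary lines (24.1% to 44.6% of reads per library) were left out.

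Levels are TMM-scaled CPM. edgeR 4.0.16 was fitted to all 8 libraries with 1 mean per line, and the quasi-likelihood test with Benjamini-Hochberg adjustment called genes at 0.05. Standard errors follow from the log2 fold change and the F value. Fold bounds of genes at 0 counts use 3 counts over the line, and intervals cover counting error only. Coordinates and biotypes came from GENCODE 29 and promoters from RefSeq. Named genes were PDE10A, the 12 largest rises and 12 largest falls (called, protein-coding, mean of 1 CPM or more in the higher line, libraries not overlapping), up to 4 called genes of each of 52 lists, and 7 genes always taken, among them FN1 and MLLT11. Members and lists were chosen with earlier results of these data known. Lists are described by counts and medians without a set test. A few genes named by this rule are not reported here.

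Other settings tried were DESeq2 1.42.0, RLE size factors, no filter, the title suffix as a block, offsets for GC content and length, these with the block, the 4 libraries alone, a size threshold of 1 on the log2 scale and the omission of each library, where the lone library of a line is assumed to vary like the others. Libraries of a line differed by more than sampling noise (chi-square per degree of freedom 91.9 to 191).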

Additional observations from a re-analysis of the deposited data

Results flagged for a closer look

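For 14 named genes the change against EV 1B9 differed between KO 5H5 and KO 2F4 in the test of the difference itself (KO 5H5 against KO 2F4, the quasi-likelihood F test of edgeR over all genes, adjusted p 0.00118 to 0.0491). Values are log2 fold changes of KO 5H5 over KO 2F4.

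Higher in KO 5H5 than in KO 2F4 were KRT17 (9.24), CNN1 (7.94), FGFR2 (6.81), COL1A1 (6.32), KRT5 (5.18), TGFB2 (3.36), MAL2 (2.48), SPARC (2.46) and MMP2 (1.99). Among these, KRT5, KRT17 and MAL2 had -9.64, -4.60 and -2.34 for KO 5H5 over EV 1B9, and KO 2F4 had lower values (-14.81, -13.84 and -4.81). COL1A1 and FGFR2 gave 4.34 and 3.80 for KO 5H5 over EV 1B9, while KO 2F4 gave -1.98 and -3.01.

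Lower in KO 5H5 than in KO 2F4 were PLVAP (-10.64), NPNT (-7.48), ABCA3 (-3.30), SPANXB1 (-2.64) and B4GALNT1 (-2.48). SPANXB1 and B4GALNT1, the synthase of ganglioside GM2, had 5.55 and 1.95 for KO 5H5 over EV 1B9, and KO 2F4 had higher values (8.19 and 4.43).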

How the results depend on the processing

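The 681 called genes kept their direction under every alternative run, except that 680 did without KO 5H5 2. The number called was 679 with RLE size factors and 2120 (1079 higher, 1041 lower) from the 4 libraries alone, 1375 (756 and 619) with DESeq2, and 344 (214 and 130) against a size threshold of 1 on the log2 scale. Genes called lower were 473 without a filter and 419 with GC and length offsets. Leaving out 1 library gave 239 to 1080 called, 121 to 587 higher and 69 to 559 lower, with 1080 without KO 2F4 1 and 1074 without KO 2F4 2. Calls shared with KO 2F4 against parental were 209 without a filter, 203 with the offsets, 283 with DESeq2 and 50 to 184 with 1 library left out. PDE10A ranged from -4.88 to -3.84 with 1 library left out. The title suffix did not pair the libraries (correlation of deviations -0.26 to 0.20), and with it as a replicate block 524 genes passed, PDE10A gave -4.34 (adjusted p 0.0559), and with block and offsets -3.92 (adjusted p 0.0506), with 180 shared calls. Of 116 called named genes, 59 kept their call in all of these but the size threshold, which was not run on them. CTNNB1 turned to 0.24 with the offsets, 0.22 with block and offsets and ranged from -0.37 to 0.17 with 1 library left out, and CCND1 ranged from -0.69 to 0.17. The cause of these shifts was not tested.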
